A study of Mus musculus with 15 samples.

Results

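Transcripts of the genes that make, sense and break down prostaglandins were measured in mouse embryonic fibroblasts (MEFs) with and without Mta1. The members were fixed by name as 8 prostanoid genes (Ptgs1, Ptgs2, Ptges, Ptgis, Ptger2, Ptger4, Ptgfr and Hpgd), and a member entered when a probe row of the array was annotated to that gene alone. Such a row was found for 7 of the 8, and Ptgs1 was not analysed here. The 7 stand among 16755 probe rows, of which 14996 carry a single gene. The RNA was hybridised to Affymetrix Mouse Exon 1.0 ST arrays, with 15 arrays in 5 groups of 3 each. All MEFs were of the strain C57BL/6J. WT MEFs, Mta1-KO MEFs and Mta1-KO/Mta1 MEFs, in which Mta1 was put back into the knockout cells, came from embryos of day 9.0. P53-KO MEFs and P53-KO/Mta1 MEFs, in which Mta1 was over expressed in the P53 knockout cells, came from embryos of day 12.5. The P53 genotype and the embryonic day therefore cannot be told apart. The P53-KO MEFs were provided by another laboratory, and the labels name no empty-vector group beside either transfected group. The study compared these groups to find the genes that depend on Mta1 when P53 is present and when it is absent.

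Prostaglandins are short-lived lipid signals made from arachidonic acid, which phospholipases release from the cell membrane. A cyclooxygenase (Ptgs1, largely constitutive, or Ptgs2, inducible by cytokines, growth factors and stress) turns arachidonic acid into the common precursor prostaglandin H2. Terminal synthases then make single prostaglandins from it, Ptges making prostaglandin E2 and Ptgis making prostacyclin. The products act on cell surface receptors that couple to G proteins. Ptger2 and Ptger4 bind prostaglandin E2 and raise cyclic AMP, whereas Ptgfr binds prostaglandin F2 alpha and raises intracellular calcium. Hpgd oxidises prostaglandins and so begins their inactivation. Fibroblasts are a well known source of prostaglandin E2 in inflamed and healing tissue.

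Each value is a log2 value that the authors had normalised, with every row centred on its own median over the 15 arrays. A value of 0 is the row's middle array and not an absent transcript, and no level can be set against that of another gene. A row was called up-regulated or down-regulated at an adjusted p-value under 0.05 (limma, Benjamini-Hochberg over all rows) with a fold of at least 2, which is 1 on the log2 scale. The study states 3 biological replicates for each of the 5 groups, and the array titles use the term for WT, Mta1-KO and P53-KO. Neither says if each array had an embryo or a culture of its own. The spread behind each p-value is thus that of 3 arrays and can be technical. The number of arrays limits the precision.

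As a check of the labels, the Mta1 row had a log2 difference of -1.09 between Mta1-KO and WT (standard error 0.0657, adjusted p = 6.17e-09 from limma), while Mta1-KO/Mta1 did not exceed Mta1-KO (difference -0.17, adjusted p = 0.0669). In P53-KO/Mta1 it was above P53-KO by 0.27 (adjusted p = 0.00603). Whether these probes read the deleted or the introduced sequence is unknown, and the groups are named as labelled. The study also compared Mta1 protein in the 5 groups by Western blot, and that blot was not read here. The fibroblast marker genes (11 with a row) separated the groups as well. Their mean per array was -1.37 to -1.24 in WT, 0.218 to 0.236 in Mta1-KO, -0.300 to -0.251 in Mta1-KO/Mta1, 0.777 to 0.963 in P53-KO and 0.0797 to 0.270 in P53-KO/Mta1. WT was thus the group with the lowest fibroblast markers, with Thy1 lower than in Mta1-KO by 4.20 and Dcn by 4.90 on the log2 scale. The macrophage markers Csf1r and Cd14 differed the other way (-1.70 and -1.36, Mta1-KO minus WT). Over the 9 macrophage and blood markers the median difference was 0.037, with 1 passing the adjusted p-value upward and 2 downward. By mean per array they read 0.135 to 0.188 in WT and -0.185 to -0.0972 in Mta1-KO. In the other groups no array mean exceeded 0.0666, so WT was the highest group. Of the other markers, 2 of 9 of macrophage and blood, 1 of 6 of smooth muscle and 1 of 5 of epithelium were called lower in Mta1-KO than in WT. Called higher were 2 of 6 of smooth muscle and 1 of 8 of endothelium. Of all rows, 6.64% were called in that comparison (708 up and 404 down). Smooth muscle markers had their highest mean per array in P53-KO (0.889 to 0.982). The centred values cannot show whether a marker was absent in any group. In such bulk samples fewer cells of a type and less RNA per cell cannot be told apart.

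The sequences before the transcription starts of Ptgs2 and Ptgfr are shown because these were the members called up-regulated and down-regulated in the comparisons that follow. The sequences are from RefSeq (GRCm38.p6), in which 6 of the 7 members have a promoter entry of 250 bases before and 50 after the start. The Ptgs2 stretch lies at chr1:150099781-150100030 on the plus strand and the Ptgfr stretch at chr3:151837529-151837778 on the minus strand. Capitals mark the GC box GGGCGG, the letters read by the SP1 family, and in Ptgs2 also the palindrome TTGCGCAA, the letters preferred by C/EBP factors. A second GC box of Ptgfr begins 4 bases before the start (position -4), runs past the end of the stretch and is not in capitals.
Ptgs2: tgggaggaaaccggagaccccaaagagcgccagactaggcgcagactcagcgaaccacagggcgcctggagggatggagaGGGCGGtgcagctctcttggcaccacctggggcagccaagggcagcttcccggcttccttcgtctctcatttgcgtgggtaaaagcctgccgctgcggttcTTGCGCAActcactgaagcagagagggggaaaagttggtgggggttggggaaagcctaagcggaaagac
Ptgfr: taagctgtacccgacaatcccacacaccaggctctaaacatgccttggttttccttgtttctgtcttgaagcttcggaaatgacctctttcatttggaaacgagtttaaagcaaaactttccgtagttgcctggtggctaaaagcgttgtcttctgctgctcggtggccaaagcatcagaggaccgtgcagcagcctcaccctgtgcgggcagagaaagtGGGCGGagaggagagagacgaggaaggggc

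On either strand, the C/EBP palindrome was found in 60 of 32851 promoter windows of the same length (0.183%), and among the 6 members in Ptgs2 alone, where it begins 69 bases before the start (position -69). The GC box was far commoner (35.7% of the windows) and was found in 5 of the 6 members, Ptger2 being the member without a match. Just after the start, at chr1:150100035-150100064, the Ptgs2 window holds an E-box (CACGTG, 7.15% of windows) that overlaps the core letters of the cyclic AMP response element (TGACG, read on the other strand as CGTCA, 20.8% of windows). Capitals mark both, and none of the other 5 members held either one.
Ptgs2 after the start: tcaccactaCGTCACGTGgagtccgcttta
The full cyclic AMP response element TGACGTCA (1.79% of windows) was in none of the 6, and TATAAA (13.6% of windows) was in Hpgd only. A match is a description of letters and does not show that a factor binds. Positions are counted from the RefSeq start, and the start used in these MEFs was not mapped.

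Mta1-KO MEFs, compared with WT MEFs, had more Ptgs2 and far less Ptgfr transcript, and Ptges and Ptgis were higher by less than a fold of 2. Ptgs2, the inducible cyclooxygenase, read -1.03, -1.22 and -1.33 in the WT arrays. The Mta1-KO arrays read -0.09, 0.00 and 0.00. Every Mta1-KO array was above every WT array. The difference was 1.16 on the log2 scale, a fold of 2.24 (standard error 0.0813, adjusted p = 2.96e-08 from limma). After quantile normalisation the same difference was 0.93 (adjusted p = 8.14e-08), under the fold of 2, so the call of Ptgs2 in this comparison rests on the scaling while its direction does not. Ptgfr, the receptor for prostaglandin F2 alpha, read 1.37, 1.65 and 1.46 in WT against -0.51, -0.99 and -0.99 in Mta1-KO. The groups were wide apart, with a difference of -2.32 or a fold of 5.00 (standard error 0.147, adjusted p = 1.03e-08 from limma). Ptgfr was thus the member that differed most between Mta1-KO and WT, and 1.52% of all rows differed by as much.

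The terminal synthases moved upward with Ptgs2. Ptges, which makes prostaglandin E2, read -0.71, -0.74 and -0.90 in WT against 0.35, 0.05 and 0.16 in Mta1-KO, a difference of 0.97 (fold 1.96, adjusted p = 4.58e-07 from limma). It stayed just below the fold of 2, and leaving out WT replicate 1 (1.01) or Mta1-KO replicate 2 (1.04) put it just above. Ptgis, the prostacyclin synthase, read -0.66, -0.69 and -0.70 in WT against 0.15, 0.04 and 0.22 in Mta1-KO (difference 0.82, adjusted p = 4.33e-07 from limma). For both synthases the lowest Mta1-KO array lay well above the highest WT array.

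The prostaglandin E2 receptors did not follow the synthases. Ptger4 read 0.00, -0.04 and 0.07 in WT against -0.50, -0.46 and -0.59 in Mta1-KO, lower by a fold of 1.44 (difference -0.52, adjusted p = 2.93e-05 from limma). Ptger2 overlapped between the groups (difference 0.06, standard error 0.149, adjusted p = 0.784 from limma), and its arrays scattered more widely than those of Ptger4. The dehydrogenase Hpgd differed by 0.15 (standard error 0.0724, adjusted p = 0.111 from limma). In all, 1 of the 7 members was called up-regulated and 1 down-regulated, where 6.64% of all rows were called (708 up and 404 down). Without a minimum fold, 5 of the 7 passed the adjusted p-value (3 up and 2 down), beside 40.2% of all rows. The median size of the difference was 0.821 over the members and 0.162 over all rows. In the same comparison 5 of the 11 fibroblast markers were called up-regulated and none down-regulated, and 10 passed the adjusted p-value upward. The part of the markers in these differences was not tested.

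**Figure D1:**
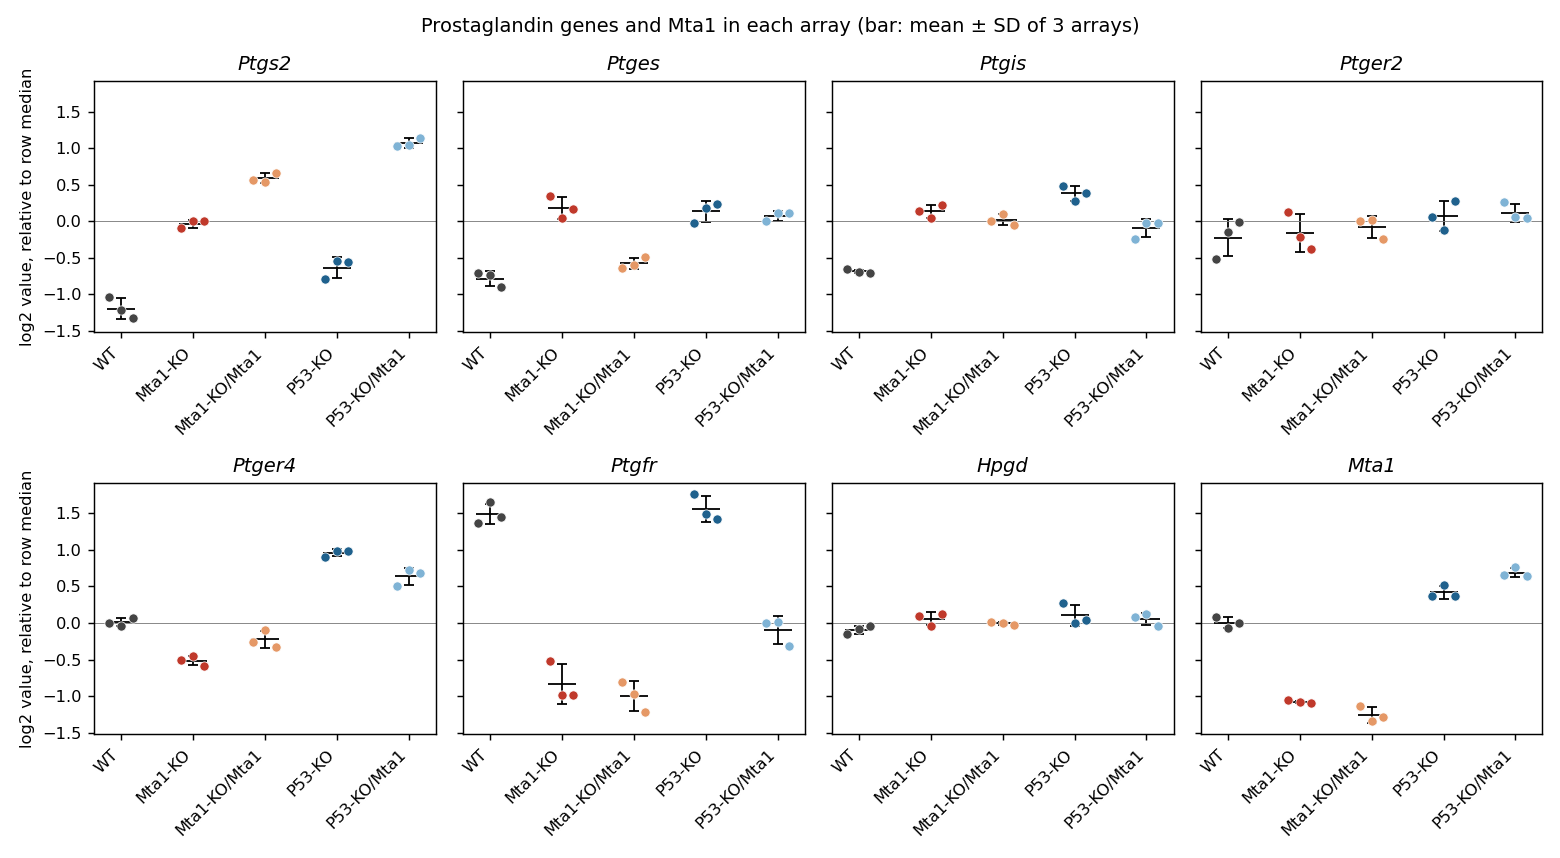
Normalised log2 value, relative to the row's median over 15 arrays, of the 7 prostaglandin genes and of Mta1 in each array (points), by group, with the mean and SD of 3 arrays (bars). Ptgs2 was lowest in WT (-1.33 to -1.03) and highest in P53-KO/Mta1 (1.03 to 1.15), and Ptgfr was high in WT and P53-KO and low in the other groups.

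Putting Mta1 back into the knockout cells did not bring Ptgs2 or Ptgfr back toward WT. Ptgs2 was higher again in Mta1-KO/Mta1 than in Mta1-KO, at 0.56, 0.54 and 0.67, a further difference of 0.62 or a fold of 1.54 (standard error 0.0813, adjusted p = 6.22e-05 from limma). The Mta1-KO/Mta1 arrays thus stood 1.78 above WT (fold 3.44, adjusted p = 3.31e-10 from limma). Ptgfr stayed low at -0.81, -0.97 and -1.22, and the arrays overlapped those of Mta1-KO (difference -0.17, standard error 0.147, adjusted p = 0.485 from limma). It was 5.63-fold below WT (adjusted p = 5.75e-09 from limma).

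Ptges and Ptger4 lay nearer to WT in Mta1-KO/Mta1 than in Mta1-KO. Ptges read -0.64, -0.60 and -0.49 in Mta1-KO/Mta1, all below the Mta1-KO arrays (difference -0.76, fold 1.70, adjusted p = 1.97e-05 from limma) and 0.21 above WT (adjusted p = 0.0801). Ptger4 read -0.25, -0.09 and -0.33, above Mta1-KO by 0.29 (adjusted p = 0.00682 from limma) and still below WT by 0.23 (difference -0.23, adjusted p = 0.0165). Ptgis did not return, at 0.00, 0.10 and -0.04 against 0.15, 0.04 and 0.22 in Mta1-KO (difference -0.12, adjusted p = 0.297 from limma). For Ptger2 the difference was 0.08 (adjusted p = 0.78) and for Hpgd it was -0.07 (adjusted p = 0.607). None of the 7 members reached the fold of 2 in this comparison, in which 1.11% of all rows were called (54 up and 132 down, or 120 up and 119 down after quantile normalisation). At the adjusted p-value alone, 3 of the 7 passed (2 up and 1 down), beside 28.0% of all rows. Of the 11 fibroblast markers 8 passed the adjusted p-value downward and none upward (median difference -0.479). Col3a1 was the 1 called down-regulated (difference -1.47), and the part of the markers was not tested. Since this comparison and the one against WT share the Mta1-KO arrays, the size of one is not independent of the size of the other.

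In the P53 knockout background, added Mta1 went with the largest of the 3 Ptgs2 differences and with a fall of Ptgfr. Ptgs2 read -0.79, -0.54 and -0.56 in P53-KO and 1.03, 1.04 and 1.15 in P53-KO/Mta1. No array of one group came near the other. The difference was 1.70, a fold of 3.26 (standard error 0.0813, adjusted p = 3.06e-09 from limma), and 0.346% of all rows differed by as much. Ptgfr read 1.76, 1.49 and 1.42 in P53-KO and 0.00, 0.02 and -0.32 in P53-KO/Mta1, a difference of -1.66 or a fold of 3.16 (standard error 0.147, adjusted p = 1.44e-06 from limma). That was exceeded or matched by 0.382% of all rows.

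The other members differed less between P53-KO and P53-KO/Mta1. Ptgis read 0.48, 0.27 and 0.39 in P53-KO and -0.24, -0.02 and -0.02 in P53-KO/Mta1, lower by a fold of 1.39 (difference -0.48, adjusted p = 0.000204 from limma). Ptger4 read 0.91, 0.98 and 0.99 against 0.51, 0.73 and 0.68 (difference -0.32, adjusted p = 0.00325 from limma). For both genes every array with added Mta1 lay below every P53-KO array on the deposited scale. Ptges overlapped, at -0.03, 0.19 and 0.24 against 0.00, 0.11 and 0.12 (difference -0.06, adjusted p = 0.697 from limma). Ptger2 (0.05, adjusted p = 0.868) and Hpgd (-0.05, adjusted p = 0.673) overlapped too. Of the 7 members 1 was called up-regulated and 1 down-regulated, where 1.62% of all rows were called (66 up and 205 down, or 85 up and 157 down after quantile normalisation). At the adjusted p-value alone, 4 of the 7 passed (1 up and 3 down), beside 29.9% of all rows. The median size of the difference over the members was 0.319, or 0.171 after quantile normalisation. The smaller differences thus depended in size on the scaling. Of the 11 fibroblast markers 10 passed the adjusted p-value downward here and none upward (median difference -0.758). Of these, 2 were called down-regulated, Lum (difference -1.27) and Col3a1 (-1.17, or -0.61 after quantile normalisation). The part of the markers was not tested.

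**Figure D2:**
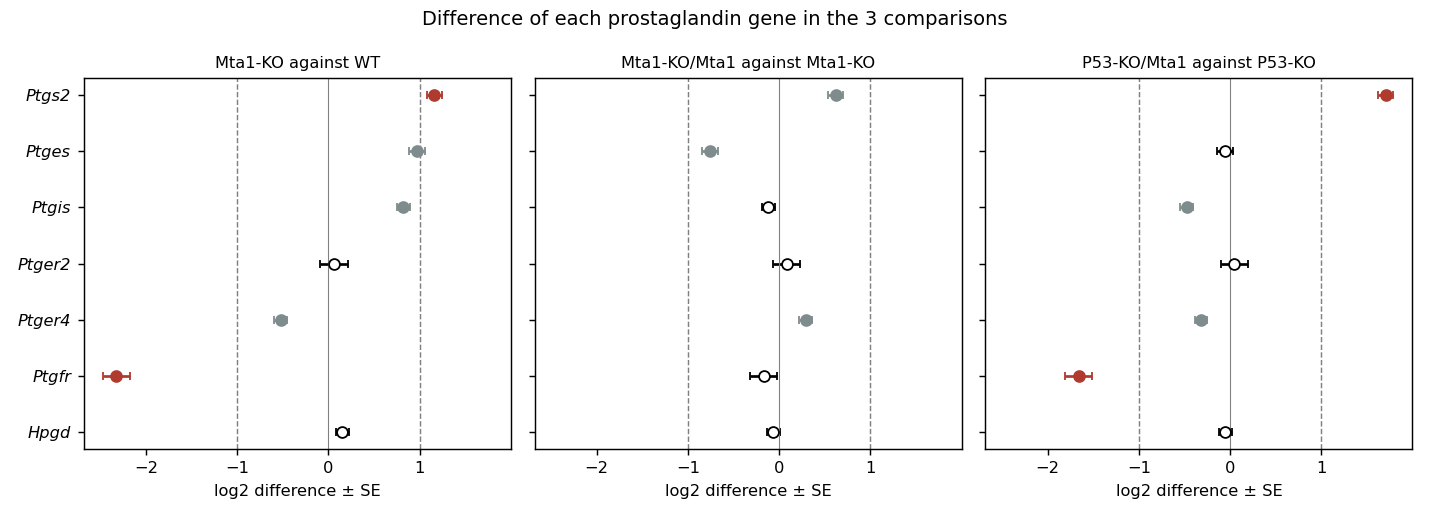
Log2 difference of each prostaglandin gene in the 3 comparisons, with its standard error from limma. Red points passed the adjusted p-value and the fold of 2 (dashed lines), grey points the adjusted p-value only, and open points neither. Ptgs2 lay above 0 in each comparison, from 0.62 to 1.70.

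The difference with added Mta1 was unequal between the backgrounds for Ptgs2 and Ptgfr. The test took the difference of Mta1-KO/Mta1 from Mta1-KO minus that of P53-KO/Mta1 from P53-KO. For Ptgs2, 0.62 minus 1.70 gave -1.08 (standard error 0.115, adjusted p = 2.15e-05 from limma), so that the rise was larger with P53 absent. For Ptgfr, -0.17 minus -1.66 gave 1.49 (standard error 0.208, adjusted p = 0.000225 from limma). These were the 2 of the 7 members called, where 1.63% of all rows were called. Ptges (-0.71, adjusted p = 0.00119), Ptger4 (0.61, adjusted p = 0.000769) and Ptgis (0.36, adjusted p = 0.0282) passed the adjusted p-value below the fold of 2. For Ptgis that pass depended on single arrays, since leaving out 1 array raised its adjusted p to as much as 0.0712 (limma). Ptger4 had opposite signs in the backgrounds, higher with Mta1 in the Mta1-KO cells and lower with it in the P53-KO cells. Ptger2 (0.04, adjusted p = 0.952) and Hpgd (-0.01, adjusted p = 0.96) did not pass. The transfected backgrounds also differ in embryonic day and in whether endogenous Mta1 is present, and these cannot be told apart from P53. Without an empty-vector group, transfection cannot be told apart from added Mta1 in either background.

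**Figure D3:**
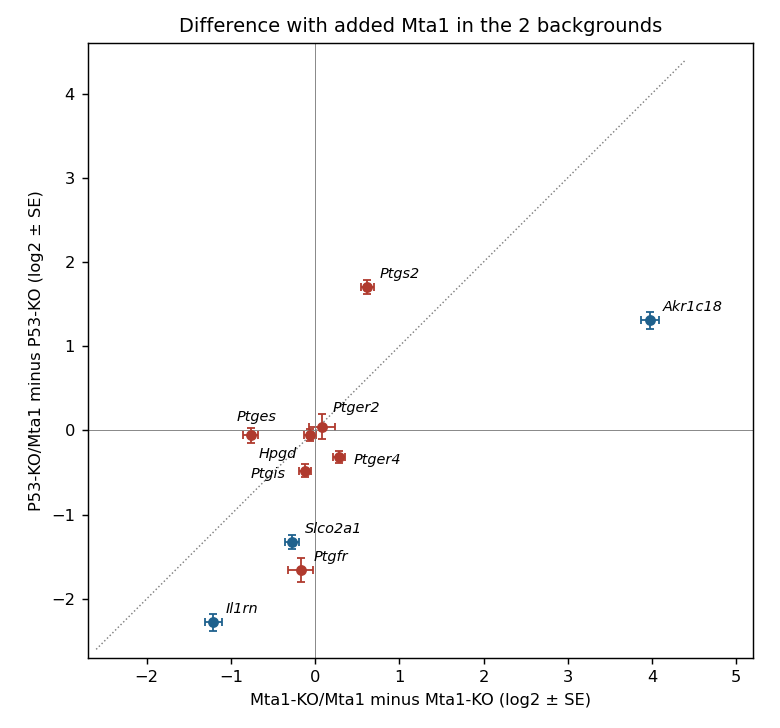
Log2 difference between P53-KO/Mta1 and P53-KO (vertical axis) against that between Mta1-KO/Mta1 and Mta1-KO (horizontal axis), each with its standard error. Red points are the 7 prostaglandin genes, blue points are 3 related genes whose responses differed, and the dotted line marks equal responses. Ptgs2 lies above the line (0.62 and 1.70) and Akr1c18 far below it (3.98 and 1.31).

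Set in order over the 5 groups, Ptgs2 rose from WT through P53-KO, Mta1-KO and Mta1-KO/Mta1 to P53-KO/Mta1, and every neighbouring pair differed (adjusted p = 3.41e-05, 2.11e-05, 6.22e-05 and 0.000187 from limma). Its group means ran from -1.19 to 1.07. Ptger4 ran from Mta1-KO through Mta1-KO/Mta1, WT and P53-KO/Mta1 to P53-KO, again with every neighbouring pair apart (adjusted p = 0.00682, 0.0165, 3.56e-06 and 0.00325). Ptgfr formed an upper and a lower pair, since P53-KO and WT did not differ (adjusted p = 0.738) and neither did Mta1-KO and Mta1-KO/Mta1 (adjusted p = 0.485), while P53-KO/Mta1 lay between them. The order of Ptgfr was unlike that of Ptger4, which was highest in P53-KO without being high in WT.

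For the synthases WT had the lowest mean, although Ptges in Mta1-KO/Mta1 was not told apart from it. Ptgis was 2.10-fold higher in P53-KO than in WT (difference 1.07, adjusted p = 1.69e-08 from limma), where 12.1% of all rows were called, and it was the only one of the 7 members called between those groups. Ptges was above WT by 0.92 in P53-KO and by 0.86 in P53-KO/Mta1, and Mta1-KO, P53-KO and P53-KO/Mta1 were not told apart (adjusted p = 0.679 and 0.697 for the neighbouring pairs). Mta1-KO/Mta1 against WT and P53-KO/Mta1 against WT each had Ptgs2 called up-regulated and Ptgfr called down-regulated, with 5.74% and 7.67% of all rows called. In P53-KO/Mta1 Ptgs2 was 4.81-fold above WT (adjusted p = 4.79e-11). No neighbouring pair of groups passed the adjusted p-value for Ptger2 or Hpgd, but Hpgd was above WT in P53-KO by 0.20 with no overlap of the arrays (fold 1.15, adjusted p = 0.0325 from limma).

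Of the other genes of the pathway, listed by their roles, 19 of 22 had a row. Between Mta1-KO and WT, 1 of the 19 was called up-regulated and none down-regulated, beside 6.64% of all rows. In Mta1-KO/Mta1 relative to Mta1-KO 1 was up-regulated, beside 1.11% of all rows. In P53-KO/Mta1 relative to P53-KO 1 was up-regulated and 2 were down-regulated, beside 1.62% of all rows, and neither of the 2 was called after quantile normalisation. In P53-KO relative to WT 4 were up-regulated and 1 was down-regulated, beside 12.1% of all rows. Among the synthases and carriers, Akr1c18 stood out. It encodes an aldo-keto reductase that inactivates progesterone, of a family that also holds prostaglandin F synthases. It read -0.01, 0.05 and -0.03 in Mta1-KO against 3.76, 4.14 and 4.04 in Mta1-KO/Mta1 (difference 3.98, fold 15.8, adjusted p = 3.46e-11 from limma). In P53-KO it read -0.29, 0.00 and -0.31 and in P53-KO/Mta1 1.12, 0.96 and 1.24 (difference 1.31, adjusted p = 4.74e-07 from limma). It was therefore up-regulated with Mta1 in both backgrounds, and in WT it was lowest, at -0.51, -0.38 and -0.42.

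Slco2a1, the carrier that takes prostaglandins up into cells, was high in both P53 groups and highest in P53-KO. It read 2.32, 2.48 and 2.37 in P53-KO and 1.13, 0.98 and 1.11 in P53-KO/Mta1, and no array of the other 3 groups was above 0.02. The fall with Mta1 was 1.32 (difference -1.32, adjusted p = 5.33e-08 from limma), or 0.88 after quantile normalisation (difference -0.88, adjusted p = 1.22e-05), which is under the fold of 2. Cbr1, a carbonyl reductase that can turn prostaglandin E2 into F2 alpha, exceeded WT in Mta1-KO by 0.86 (fold 1.81, adjusted p = 1.55e-06 from limma). For the remaining prostaglandin E2 synthases Ptges2 and Ptges3, the prostaglandin D2 synthases Ptgds and Hpgds, the thromboxane synthase Tbxas1 and the prostaglandin F synthase Prxl2b, every group mean lay between -0.16 and 0.20.

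Among the other receptors, the prostaglandin E2 receptors Ptger1 and Ptger3 were high in P53-KO. Ptger3, which lowers cyclic AMP, read 1.03, 1.26 and 0.98 in P53-KO and 0.00, -0.05 and 0.05 in P53-KO/Mta1 (difference -1.09, adjusted p = 4.52e-07 from limma, and -0.96 after quantile normalisation). It was thus at the level of the other groups once Mta1 was over expressed. Ptger1, which raises calcium, stayed high with Mta1, at 1.02, 1.16 and 0.96 in P53-KO and 0.76, 1.18 and 0.79 in P53-KO/Mta1. Ptgfrn, a membrane protein that binds and restrains the prostaglandin F receptor, was also high in both P53 groups (0.75 to 1.11 over the 6 arrays). The prostacyclin receptor Ptgir was above WT by 0.62 in Mta1-KO (adjusted p = 0.000326 from limma), and the thromboxane receptor Tbxa2r and the prostaglandin D2 receptors Ptgdr and Ptgdr2 had no call in any of these comparisons.

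Among the inactivating enzymes, Ptgr2, a reductase that acts after Hpgd, was the pathway gene called in Mta1-KO against WT. It read -1.44, -1.35 and -1.29 in WT against 0.91, 0.86 and 0.69 in Mta1-KO (difference 2.18, fold 4.54, adjusted p = 1.37e-12 from limma). Mta1-KO/Mta1 lay between them at -0.03, 0.02 and 0.05 (difference from Mta1-KO -0.81, adjusted p = 5.27e-07). Cbr3, a carbonyl reductase, was 4.01-fold lower in P53-KO than in WT, and the reductase Ptgr1 was 1.31-fold above P53-KO in P53-KO/Mta1 (adjusted p = 0.00146). Hpgd itself had group means from -0.09 to 0.10.

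**Figure D4:**
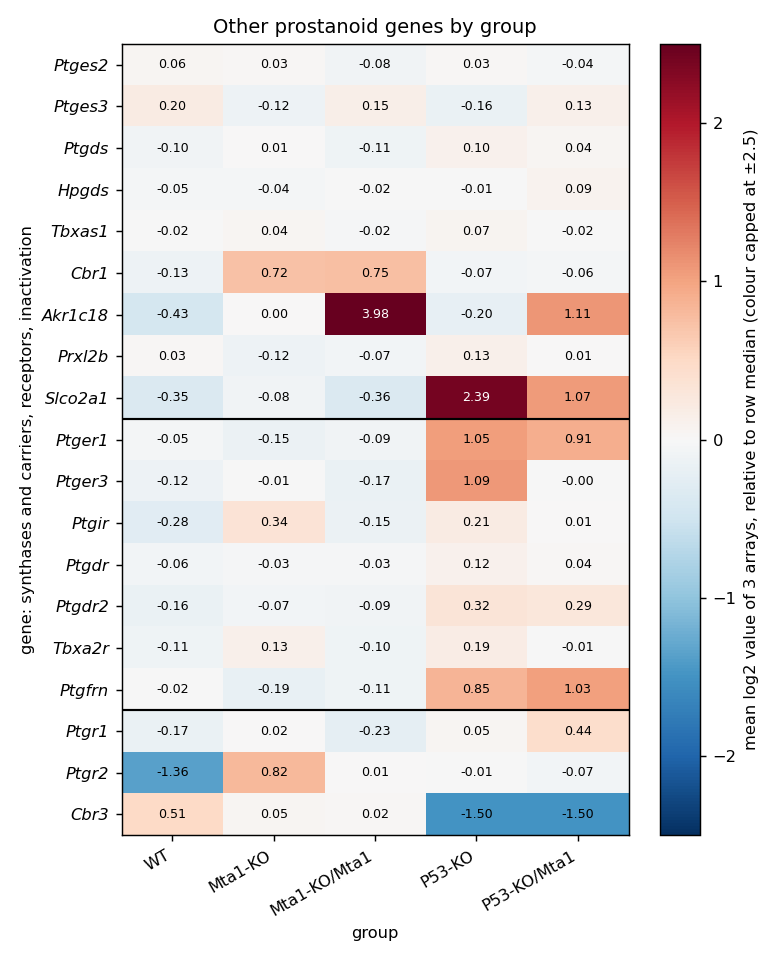
Mean log2 value of 3 arrays, relative to the row's median, of the 19 other prostanoid genes with a row in each group (synthases and carriers above the first line, receptors between the lines, inactivating enzymes below). Akr1c18 reached 3.98 in Mta1-KO/Mta1 and Slco2a1 reached 2.39 in P53-KO, the highest 2 means of the map.

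Upstream of the cyclooxygenases, 14 of 16 genes of arachidonate release had a row and 1 was called down-regulated in Mta1-KO (2 after quantile normalisation), beside 6.64% of all rows. Pla2g12a, a secreted phospholipase A2, read 0.04, 0.09 and -0.02 in WT against -0.91, -1.21 and -1.01 in Mta1-KO (difference -1.08, adjusted p = 2.23e-07 from limma). Pla2g4a, the cytosolic phospholipase A2 that feeds the cyclooxygenases, was above Mta1-KO by 0.28 in Mta1-KO/Mta1 (adjusted p = 0.0293) and above P53-KO by 0.39 in P53-KO/Mta1 (adjusted p = 0.00371). The leukotriene genes, which draw on the same arachidonic acid, had no call in the 3 comparisons (10 of 12 with a row). Of all rows, 6.64%, 1.11% and 1.62% were called in these comparisons.

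Of the known inducers of Ptgs2 and the factors that act on its promoter, 19 of 21 had a row. In Mta1-KO against WT, 5 of the 19 were called up-regulated and none down-regulated, beside 6.64% of all rows called (708 up and 404 down). The interleukin 1 receptor Il1r1 was 3.33-fold higher, its partner Il1rap 5.15-fold, the endotoxin receptor Tlr4 5.93-fold, the AP-1 subunit Jun 2.73-fold, and the receptor antagonist Il1rn was higher by 3.32 on the log2 scale. The adjusted p-values ran from 2.89e-12 for Il1rn to 7.77e-10 for Il1r1 (limma). Il1rn blocks interleukin 1 rather than inducing Ptgs2, so the calls of this list run in both senses. The ligands Il1a, Il1b and Tnf differed by 0.09, 0.03 and 0.04 (adjusted p = 0.223, 0.748 and 0.822).

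With added Mta1 there were 3 calls in this list over both backgrounds, 2 of them of the antagonist Il1rn. In Mta1-KO/Mta1 against Mta1-KO, Tlr2 fell by 1.19 (adjusted p = 7.07e-07) and Il1rn by 1.21 (adjusted p = 1.14e-06), the latter by 0.85 after quantile normalisation (difference -0.85). In P53-KO/Mta1 against P53-KO, Il1rn fell by 2.28 (adjusted p = 1.42e-09). None of the 19 was called up-regulated in either comparison, where 1.11% and 1.62% of all rows were called. Cebpb, whose product is a C/EBP factor, was above WT by 0.59 in Mta1-KO (adjusted p = 0.000165), and with added Mta1 it differed by -0.55 (adjusted p = 0.000652) in Mta1-KO/Mta1 and by -0.17 (adjusted p = 0.217) in P53-KO/Mta1.

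Early genes of cyclic AMP signalling, which the prostaglandin E2 receptors Ptger2 and Ptger4 feed, had a row for 10 of 12. In Mta1-KO against WT 2 of the 10 were called down-regulated and none up-regulated, beside 6.64% of all rows, and after quantile normalisation 4 were called down-regulated. Rgs2, a brake on G protein signalling, read 1.53, 1.62 and 1.44 in WT against -0.82, -1.02 and -0.96 in Mta1-KO (difference -2.46, adjusted p = 3.15e-10 from limma). The phosphatase Dusp1 was lower by a fold of 2.65 (adjusted p = 3.29e-10). No gene of this list was called with added Mta1 in either background, where 1.11% and 1.62% of all rows were called.

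The rows most like the called members over the 15 arrays were sought among 3359 single-gene rows whose group means span at least 1 on the log2 scale. The arrays share their groups, so these values describe likeness and carry no test. For Ptgfr the closest rows were Slc9a3r1 (Pearson's r = 0.975), a scaffold of membrane transporters, Mapk8ip3 (r = 0.962), a scaffold of JNK signalling, and Slc2a3 (r = 0.961), a glucose transporter. All of these were high in WT and P53-KO and lower in the other groups, as Ptgfr was. For Ptgs2 they were Podxl (r = 0.915), Upp1 (r = 0.912) and Nab1 (r = 0.903). With Spearman's correlation in place of Pearson's, 1 of the 3 was kept for Ptgfr and 0 of the 3 for Ptgs2.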

How the data were processed

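Total RNA of the 15 MEF samples had been labelled and hybridised, 1 array a sample. The deposited values are log2 values that the authors normalised in GeneSpring GX 10.0.2 and centred on each row's median (largest absolute row median 0). How exon probes were summarised is not given in the sources consulted, and the centring removed the level. Array medians ran from -0.0165 to 0.0231, and r between arrays of a group from 0.868 to 0.961. Probes were named from the platform annotation, and 14941 of the single-gene rows matched a RefSeq gene by Entrez ID. A mean per group was estimated by limma 3.58.1 under R 4.3.3 (10 residual degrees of freedom), adjusting over all 16755 rows, at the methods' thresholds. The fit was tested on simulated data. The methods named an unpaired t-test, which was an alternative here beside other scalings, fold minimums, variance models, a replicate block and leaving out each array. Quantile normalisation and array centring of the listed genes other than members were chosen after seeing the data.

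The members and the gene lists were chosen with earlier results of these data known. Named were the members, Mta1, every listed prostanoid gene with a row, and for each called member the 3 most correlated rows. From the wider lists (83 genes, 72 with a row), every gene called in the 3 main comparisons or in their difference was named. Calls of those lists in the other comparisons against WT were not all named. Further genes (Pla2g4a, Cebpb, Il1a, Il1b, Tnf and markers) were named after their values were seen. A gene with several rows was read on the one of largest spread, and each member had 1 row. Promoter sequences came from RefSeq (GRCm38.p6). Plots used matplotlib 3.10.9 (Python 3.11.15).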

Additional observations from a re-analysis of the deposited data

Results flagged for a closer look

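For each of the following genes, the difference with added Mta1 was unequal between the 2 backgrounds. The test set Mta1-KO/Mta1 minus Mta1-KO against P53-KO/Mta1 minus P53-KO (limma). No empty-vector group was named, so transfection and Mta1 cannot be told apart, nor can P53 and embryonic day. Ptgs2 differed by -1.08 (0.62 against 1.70, adjusted p = 2.15e-05). Ptgfr differed by 1.49 (-0.17 against -1.66, adjusted p = 0.000225). Akr1c18 differed by 2.67 (3.98 against 1.31, standard error 0.145, adjusted p = 3.34e-08), the widest of the 5. Slco2a1 differed by 1.04 (-0.28 against -1.32, adjusted p = 3.61e-05), which became 0.52 (adjusted p = 0.014) after quantile normalisation and so passed the fold of 2 on the deposited scale only. Il1rn differed by 1.07 (-1.21 against -2.28, adjusted p = 0.000156), and by 1.81 (adjusted p = 1.06e-06) after quantile normalisation. Groups of 3 arrays were too small to test single arrays as outliers.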

How the results depend on the processing

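No called difference of a member changed direction under any alternative run. Outside leaving out single arrays, 199 of 217 member results kept their side of the threshold, 17 crossed it upward under lower fold minimums, and 1 was lost, Ptgs2 in Mta1-KO against WT after quantile normalisation (0.93). The members called there were then 1. With no minimum fold, 6732 rows and 5 members passed between Mta1-KO and WT (the first comparison), 4698 and 3 between Mta1-KO/Mta1 and Mta1-KO (the second), 5003 and 4 between P53-KO/Mta1 and P53-KO (the third), and 2913 and 5 in the difference between the responses. With a fold of 1.5, 2647, 1008, 1151 and 1089 rows passed, with 4 members in the first, 2 in the second and 4 in the difference. Leaving out 1 array gave 1085 to 1165, 173 to 209, 271 to 308 and 268 to 290 rows, and 2 to 3 members in the first comparison. Signs turned in 16 of 420 such results, all of them uncalled values of Ptger2 or Hpgd no larger than 0.0817 in size. Ptger2 ranged from -0.0816 to 0.174 in the first comparison, -0.0296 to 0.223 in the second, -0.0516 to 0.151 in the third and -0.0753 to 0.178 in the difference. Hpgd ranged from -0.103 to 0.0317 in the third and -0.0975 to 0.0376 in the difference. Of the calls of listed genes under quantile normalisation or array centring, 186 of 198 were kept and 0 changed direction.

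Same-numbered arrays showed no consistent pairing, with r of their deviations of -0.18, 0.35 and 0.42 in the first comparison, 0.07, -0.38 and -0.20 in the second and 0.26, 0.02 and -0.01 in the third, so the numbers were not taken to pair the arrays. With the replicate number as a block, 1112, 186, 271 and 274 rows and 2, 0, 2 and 2 members were called, and the side of the threshold was kept in 28 of 28 member results. With Spearman's correlation the row most like Ptgs2 was Pcdh7 (0.924) and that most like Ptgfr was Ntrk3 (0.95). Using all rows of a gene changed nothing for the members, which have 1 row each. The centred values hold no signal level, so dim probes could not be filtered out, and whether a weakly hybridised row such as Ptger2 or Hpgd was measured above background is unknown.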
